A study of Rattus norvegicus with 3 samples.

Results

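Cells of an oligodendrocyte gate that scored at least as high on an Opalin gene set as on an opposing set were examined in injured rat spinal cord. They were 558 members of a gate of 1235 cells, themselves part of 5815 cells kept in all. Not all members were high on the Opalin set, and some carried genes of other cells, as given below. The members were chosen from the expression values themselves. Across the 3 matrices, cells were kept if they showed 200 genes or more and no more than 20% of their UMIs were mitochondrial (a UMI is a molecular tag that counts 1 captured RNA once). A cell entered the oligodendrocyte gate with at least 5 UMIs per 10000 summed over the myelin genes Mog, Mag, Cldn11 and Ermn, and under 10 per 10000 of the phagocyte genes Cd68 and Tyrobp. Each gate cell then had 2 scores, each a mean of z-scored log levels over 4 genes: score A from Klk6, Hapln2, S100b and Apod, and score B from Opalin, Masp1, Tspan2 and Gpd1. Members had B at or above A. The remaining 677 gate cells, with A above B, are called the other oligodendrocytes. Because these 8 genes chose the cells, their values are given as a description with no test.

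Oligodendrocytes wrap the axons of the central nervous system in myelin, a stack of membrane rich in cholesterol that speeds conduction. They arise from precursors, pass through a newly formed stage marked by genes such as Enpp6, Bmp4 and Tcf7l2, and settle into mature states that differ between grey and white matter and along the neuraxis. Opalin encodes a membrane glycoprotein of central myelin, Masp1 a serine protease of the lectin pathway of complement, Tspan2 a tetraspanin of myelinating oligodendrocytes, and Gpd1 a cytosolic glycerol-3-phosphate dehydrogenase. On the other score, Klk6 encodes a secreted kallikrein protease, Hapln2 a hyaluronan link protein of the node of Ranvier, S100b a calcium-binding protein and Apod a lipid-carrying apolipoprotein.

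The 3 libraries came from wild type rats aged 6 to 8 weeks whose spinal cord injury site had been injected with G-HD, MPG-HD or PBS, with 5 animals per treatment. The series title names a multifunctional, self-assembled hydrogel depot; G-HD and MPG-HD are kept here as the sample titles spell them, and PBS, buffered saline, is the reference. A 5-mm piece of cord around the injury was digested with collagenase and then trypsin, red cells were lysed, and single cells were captured with 10x 3' v3 chemistry. Every treatment, the PBS animals included, carried the injury, and no uninjured cord was analysed here. Each treatment is 1 library, so a difference between treatments has no replicate check and no p-value is given. Intervals below are 95% intervals of the counts alone (exact, binomial for shares and conditional for ratios) and hold neither the spread between animals nor that between cells.

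The matrices held 2619 barcodes for G-HD, 2339 for MPG-HD and 1513 for PBS, with 26289759, 23988263 and 16081082 UMIs in the same order. Filtering left 2347, 2091 and 1377 cells, with a median of 9257, 10417 and 10292 UMIs. The gate held 380 cells of G-HD, 535 of MPG-HD and 320 of PBS. The libraries shared 8 barcodes (G-HD and MPG-HD), 8 (G-HD and PBS) and 5 (MPG-HD and PBS), and no member had a barcode shared between libraries.

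The genes of the scores have RefSeq promoters on build GRCr8 that can be set side by side; 7 of the 8 genes matched the promoter table, which spans 250 bases before to 50 bases after each gene start. Those of Opalin and Masp1, which name the cells, and of Klk6 and Hapln2, from the opposing score, are shown because the 2 scores part the same gate. Capitals mark 2 kinds of letters sought on both strands: ACAAAG or ACAATG, of the type bound by SOX10, the factor that oligodendrocytes need throughout their lineage, and CTGGCAC or CTGGTAC, of the type bound by MYRF, the activator of myelin genes. All are written 5' to 3' on the gene's strand: Opalin at chr1:249858141-249858440 (minus), Masp1 at chr11:90839472-90839771 (plus), Klk6 at chr1:103415266-103415565 (plus) and Hapln2 at chr2:175794389-175794688 (minus).
Opalin promoter: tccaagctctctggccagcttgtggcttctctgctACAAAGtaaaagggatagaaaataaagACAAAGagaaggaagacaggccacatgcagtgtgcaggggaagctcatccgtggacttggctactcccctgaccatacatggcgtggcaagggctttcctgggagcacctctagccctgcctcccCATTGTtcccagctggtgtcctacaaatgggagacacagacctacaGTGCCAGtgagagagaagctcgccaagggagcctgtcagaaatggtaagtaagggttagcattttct
Masp1 promoter: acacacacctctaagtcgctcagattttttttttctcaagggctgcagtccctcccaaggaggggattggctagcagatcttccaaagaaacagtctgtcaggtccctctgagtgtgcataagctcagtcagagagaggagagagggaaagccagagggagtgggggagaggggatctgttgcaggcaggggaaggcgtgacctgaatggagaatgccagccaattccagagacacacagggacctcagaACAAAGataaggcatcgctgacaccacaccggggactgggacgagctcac
Klk6 promoter: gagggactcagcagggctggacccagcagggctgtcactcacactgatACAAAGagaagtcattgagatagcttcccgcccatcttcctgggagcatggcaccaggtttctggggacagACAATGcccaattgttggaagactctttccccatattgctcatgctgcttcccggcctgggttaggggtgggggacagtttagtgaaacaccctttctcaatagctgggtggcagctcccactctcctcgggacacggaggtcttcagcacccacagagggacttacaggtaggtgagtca
Hapln2 promoter: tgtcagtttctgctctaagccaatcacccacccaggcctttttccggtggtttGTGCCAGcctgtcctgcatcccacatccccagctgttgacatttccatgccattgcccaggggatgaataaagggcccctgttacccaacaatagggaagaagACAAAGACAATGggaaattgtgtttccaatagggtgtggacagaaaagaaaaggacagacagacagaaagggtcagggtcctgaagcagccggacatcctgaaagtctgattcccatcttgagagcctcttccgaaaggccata
The Opalin window held 3 matches of the SOX10 type and 1 of the MYRF type, and that of Masp1 held 1 and 0. Klk6 had 2 and 0, Hapln2 2 and 1, Apod 3 and 0, and neither Tspan2 nor S100b had a match of either type. Among all 33469 promoters of the table, 29.1% held a SOX10-type match and 6.78% a MYRF-type match. These are letters in a window, not binding sites, and both scores have genes with and without them.

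The members made up 43.7% of the gate in G-HD (166 of 380 cells, interval 38.6 to 48.8), 47.3% in MPG-HD (253 of 535, 43.0 to 51.6) and 43.4% in PBS (139 of 320, 37.9 to 49.1). The 3 shares lay within each other's intervals. As a share of all kept cells, members were 7.07% in G-HD, 12.1% in MPG-HD and 10.1% in PBS. The border runs through a continuum for part of the gate: 65 members had B less than 0.1 above A, and 62 other oligodendrocytes had B less than 0.1 below A. The 3 members nearest the border had differences of 0.0035, 0.0038 and 0.0051, and the 3 nearest cells outside it -0.0013, -0.0013 and -0.0016.

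Opalin itself stood at 5.69 UMIs per 10000 in members of G-HD, 7.73 in MPG-HD and 8.35 in PBS, against 1.54, 2.59 and 3.35 in the other oligodendrocytes and 0.0262, 0.0186 and 0.0141 in cells outside the gate. Masp1 had 4.02, 6.38 and 5.21 in members, against 0.257, 0.419 and 0.357 in the other oligodendrocytes. Opalin was thus present in the other oligodendrocytes too, at a lower level, while Masp1 there was close to 0. Of all members, 66.1% had an Opalin UMI, against 42.8% of the other oligodendrocytes and 1.33% of cells outside the gate, at median depths of 11889.5, 8710 and 9784 UMIs. With each cell thinned to 2000 UMIs, the shares were 55.2%, 26.6% and 0.0989%. Tspan2 had 5.49, 6.90 and 7.96 per 10000 in members and 0.840, 1.21 and 1.54 in the other oligodendrocytes, and Gpd1 10.5, 12.2 and 9.55 against 3.26, 3.72 and 3.11, in the order G-HD, MPG-HD and PBS.

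The opposing genes were low in members by construction. Klk6 had 3.25, 3.39 and 3.08 UMIs per 10000 in members of G-HD, MPG-HD and PBS, against 22.5, 32.0 and 28.9 in the other oligodendrocytes. Hapln2 had 0.934, 0.801 and 0.824 in members, against 8.51, 11.4 and 11.3. Apod, the most abundant of the 8, had 45.1, 54.7 and 37.1 in members, against 206, 270 and 246, so none of the opposing genes was absent from members.

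**Figure D1:**
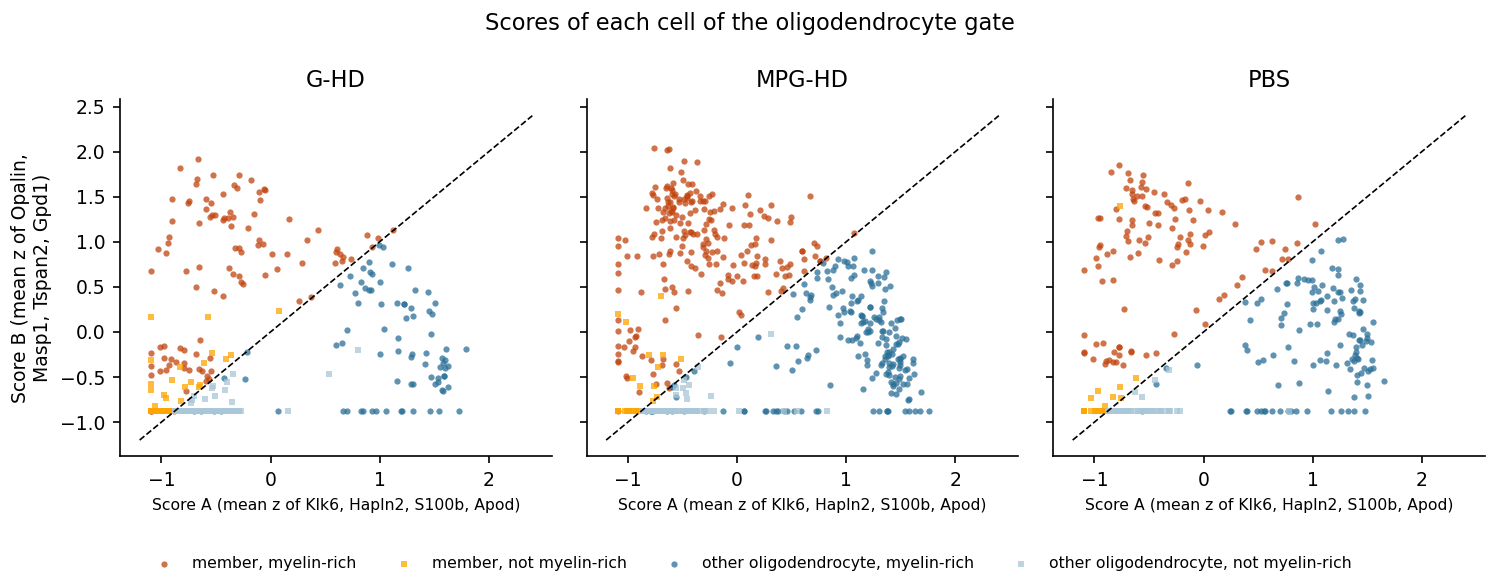
Score A (horizontal) against score B (vertical), in z units, for each of the 1235 gate cells by library; the dashed line is B equal to A, members lie on or above it, and squares are cells that are not myelin-rich. Myelin-rich members form a cloud with B above 0 and a second, smaller cloud with both scores below 0.

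Checked against defining markers, the label held for most members but not for all. A further criterion, chosen after the values had been seen, separated them: at least 100 UMIs per 10000 summed over 4 major myelin genes, among them Mbp, Mobp and Cnp, with under 10 per 10000 on a fibroblast list and on a Schwann cell list. By it, 104 of 166 members in G-HD, 221 of 253 in MPG-HD and 112 of 139 in PBS were myelin-rich, which is 62.7% (interval 54.8 to 70.0), 87.4% (82.6 to 91.2) and 80.6% (73.0 to 86.8). Of the other oligodendrocytes, 82, 197 and 129 met it. The B genes split the members further: 294 of the 558 had UMIs of all 4 B genes and 85 had none of them, 45 of these in G-HD, 21 in MPG-HD and 19 in PBS. In 32 members all 8 score genes were at 0.

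The 121 members that were not myelin-rich (62 in G-HD, 32 in MPG-HD and 27 in PBS) mostly carried the genes of other cells. Their summed level on the fibroblast list was 83.4, 111 and 104 UMIs per 10000 in the 3 libraries, against 0.435, 0.279 and 0.345 in myelin-rich members, and 97 of the 121 had at least 10 per 10000. Cldn11, one of the 4 gate genes, is also made by fibroblasts of the meninges. The Schwann list stood at 10.2, 64.9 and 0.331 in these cells, with 11 of 121 at 10 or more, and the astrocyte list at 5.19, 3.74 and 6.35. A further 16 had under 10 per 10000 on both the fibroblast and the Schwann list and missed only the sum over myelin genes, and 14 of them had at least 10 on the phagocyte list. The 121 are described as cells that passed the rule, with no cell type given, and the results below are given for myelin-rich members, with all members beside them where the value turns.

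Myelin-rich members had the gate genes by construction: Mag had UMIs in 97.9% of them, Cldn11 in 99.3% and Mog in 87.2%, against 8.25%, 21.0% and 2.90% of cells outside the gate, at median depths of 12498 and 9784 UMIs. Markers of other cells were low, those of the fibroblast and Schwann lists by construction, as the criterion limits both. Precursor genes, which part of these cells carried, are given further below. The fibroblast, Schwann, astrocyte, endothelial and mural lists summed to 0.329, 1.21, 0.122, 0.0288 and 0.0144 UMIs per 10000 over the 3 libraries. Among astrocyte markers, Slc1a2, Fgfr3, Aldh1l1 and Gjb6 had no UMI, which allows a level of up to 0.0054 per 10000 each. Phagocyte genes were the main other signal, at 11.6 per 10000 in G-HD, 9.17 in MPG-HD and 8.12 in PBS, with 17 of 17 listed genes seen and 33.0% of the cells at 10 or more. In myelin-rich other oligodendrocytes that list stood at 9.76, 5.18 and 6.17. Doublets were not called, and the part of phagocyte RNA in the results below was not tested.

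Across the treatments, myelin-rich members were 4.43% of kept cells in G-HD (interval 3.63 to 5.34), 10.6% in MPG-HD (9.28 to 12) and 8.13% in PBS (6.74 to 9.70). The ratio of shares was 0.545 for G-HD over PBS (0.413 to 0.718), 1.30 for MPG-HD over PBS (1.03 to 1.65) and 2.39 for MPG-HD over G-HD (1.88 to 3.04). The myelin-rich other oligodendrocytes ran alongside, with ratios of 0.373 (0.279 to 0.496), 1.01 (0.801 to 1.27) and 2.70 (2.07 to 3.53). Within myelin-rich cells, members were 55.9% in G-HD (48.5 to 63.2), 52.9% in MPG-HD (48.0 to 57.7) and 46.5% in PBS (40.0 to 53), and these intervals overlapped. The low share in G-HD was therefore shared by both kinds of oligodendrocyte. A lower share of these cells in the cord and a lower yield in dissociation and capture cannot be told apart here.

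**Figure D2:**
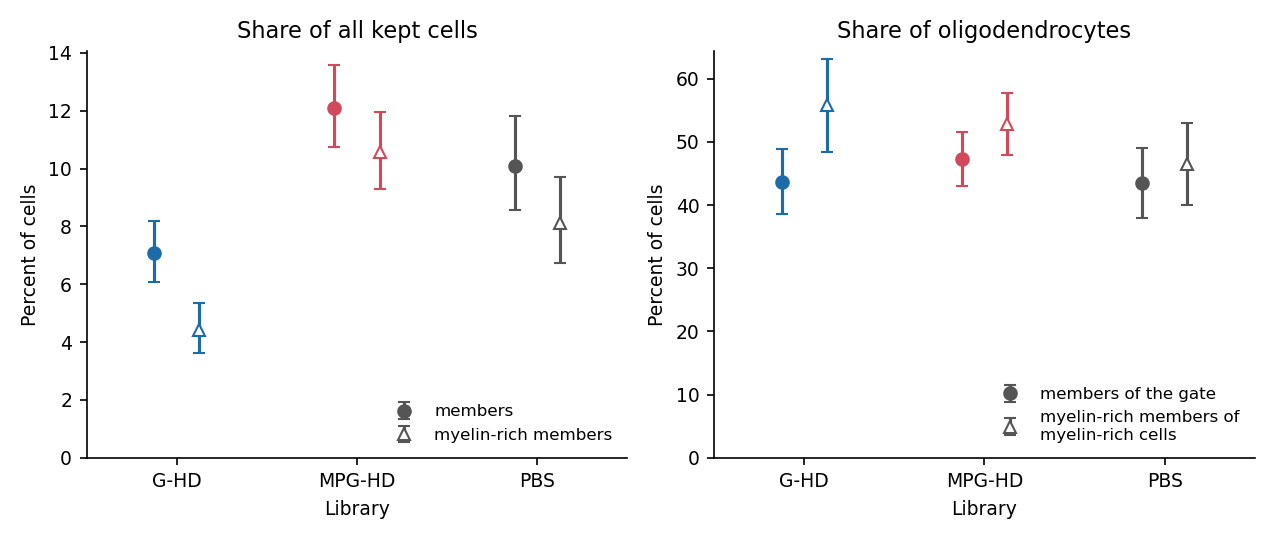
Percent of all kept cells (left) and of oligodendrocytes (right) that were members (circles) or myelin-rich members (triangles) in the G-HD, MPG-HD and PBS libraries; bars are exact binomial 95% intervals of the counts. G-HD is lowest on the left, at 7.07% and 4.43%, and on the right the intervals of the 3 libraries overlap.

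The 437 myelin-rich members were not uniform. A division at a B score of 0, also chosen after the scores had been seen, gave 361 high-B cells (75 in G-HD, 195 in MPG-HD and 91 in PBS) and 76 low-B cells (29, 26 and 21). Of the high-B cells, 97.5% had an Opalin UMI, against 1.33% of cells outside the gate, at median depths of 13573 and 9784 UMIs. In low-B cells Tspan2 was kept, at 5.63, 6.72 and 8.23 UMIs per 10000 against 8.54, 7.61 and 10.1 in high-B cells. Opalin was at 0.263, 0.302 and 0.284 in low-B cells, against 9.94, 9.24 and 11.6 in high-B cells, and Masp1 at 0.105, 0.172 and 0.426 against 6.94, 7.63 and 7.15. These 3 genes enter score B, so their levels follow from the division and are a description. Low-B cells are members because their A scores were lower still than their B scores.

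Low-B cells carried the genes of the newly formed stage. Enpp6, a choline phosphodiesterase of newly formed oligodendrocytes, had 8.11 UMIs per 10000 in low-B cells of G-HD, 8.57 in MPG-HD and 10.1 in PBS, against 0.567, 0.679 and 1.06 in high-B cells. Bmp4, a secreted signal of the same stage, had 8.79, 6.94 and 8.52 against 0.567, 0.457 and 0.937, and Tcf7l2, a transcription factor needed for differentiation, 6.11, 5.73 and 5.89 against 0.447, 0.546 and 0.969. Fyn, a kinase that relays axonal contact, had 9.85, 10.6 and 10.2 against 1.14, 1.13 and 1.58. In all 3 libraries the low-B levels of these 4 genes were above the high-B levels with no overlap. A gene was counted as higher or lower where the ratio of summed UMIs was at least 1.5-fold in the same direction in each library, among genes with enough UMIs (at least 20 per library in the 2 sums together). By that count 10 of the 12 measured newly formed genes were higher in low-B cells, with Lims2 lower, against 10.3% of 4914 genes higher and 9.36% lower; the list's median log2 ratio was 2.28 against 0.12 over all genes measured.

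Some genes of precursors went the same way. Of 10 on the list, 9 were in the data. Pdgfra, Cspg4, C1ql1, Cacng4 and Gpr17 had too few UMIs to be counted. All 4 measured precursor genes were higher in low-B cells: Vcan and Ptprz1, a proteoglycan and a receptor phosphatase of precursors, Matn4, a matrix protein, and Tnr, tenascin-R. Tnr had 3.32, 2.84 and 3.12 UMIs per 10000 in low-B cells, against 0.00994, 0.0996 and 0.180 in high-B cells. Chaperones of the endoplasmic reticulum were among 7 higher genes of 17 on the stress list (Pdia4, Hspa5, Pdia3, Hsp90b1, Shmt2, Sdf2l1 and Calr), with Ppp1r15a lower; Hspa5 had 14.0, 13.2 and 9.51 against 3.80, 5.23 and 4.22. Further genes with large ratios, chosen after their values were seen, were Dynll2, a dynein light chain, at 16.8, 13.9 and 17.3 against 0.686, 0.878 and 0.891, and Tubb2b, a tubulin, at 10.8, 9.13 and 8.52 against 0.696, 0.601 and 0.477.

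Genes of compact and mature myelin were correspondingly low in low-B cells. Mal, a proteolipid of mature myelin, had 0.0527, 0.172 and 1.21 UMIs per 10000 in low-B cells, against 23.9, 28.3 and 33.2 in high-B cells. Mobp, which sits in the major dense line, had 0.316, 1.98 and 1.63 against 34.7, 29.0 and 30.5. Cnp, an enzyme of uncompacted myelin that appears earlier, had 105, 103 and 96.6 against 94.2, 80.9 and 98.7 and was not counted. On the lists, 8 of 17 myelin protein genes were lower and 4 higher, 7 of 8 genes of the mature type that mouse work calls MOL5/6 were lower, and so were 10 of 14 channel, transporter and gap junction genes, among them Gjb1, connexin 32, at 0.421, 0.172 and 0.142 against 5.25, 4.70 and 4.91. Transferrin, Tf, an iron carrier that oligodendrocytes make, had 3.58, 7.45 and 4.12 against 94.8, 90.9 and 89.9, and 5 of 7 iron genes were lower. Of 18 cholesterol synthesis genes, 5 were lower. Over all genes, 10.3% were higher in low-B cells and 9.36% lower.

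Low-B cells formed 27.9% of the myelin-rich members in G-HD (interval 19.5 to 37.5), 11.8% in MPG-HD (7.83 to 16.8) and 18.8% in PBS (12 to 27.2). The G-HD share lay above the MPG-HD interval, and the PBS interval overlapped both. Low-B cells were also shallower, with a median of 7382, 8753.5 and 5560 UMIs against 13310, 13587 and 13597 in high-B cells. The part of depth in the B score was not tested.

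**Figure D3:**
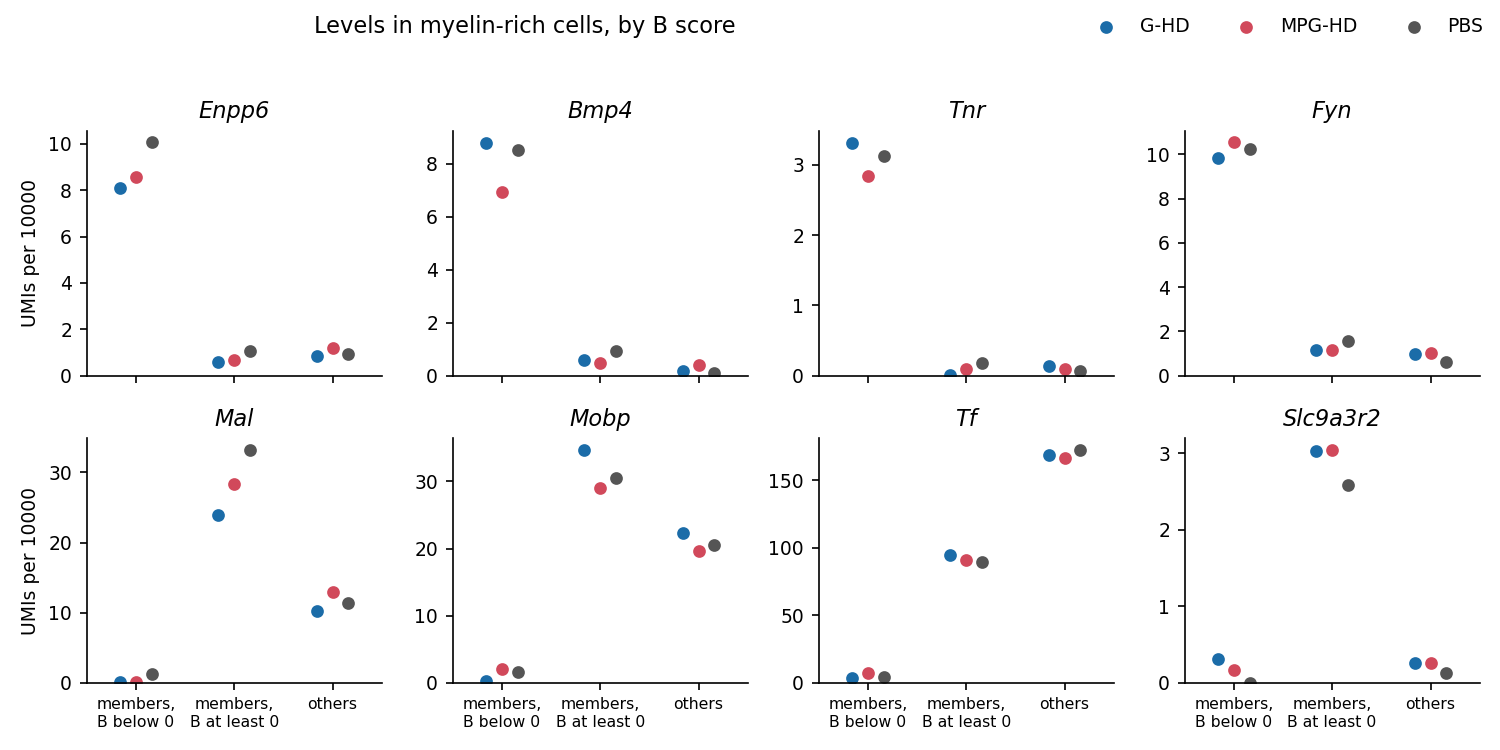
UMIs per 10000 (vertical, linear from 0) of 8 genes in low-B members, high-B members and other oligodendrocytes, all myelin-rich; each point is the summed UMIs of 1 library. The upper 4 genes are higher in low-B than in high-B members, such as Enpp6 at 8.11, 8.57 and 10.1 against 0.567, 0.679 and 1.06, and the lower 4 are lower there.

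Set against the other oligodendrocytes, members differed in far more than the genes of the rule, and these values describe the division and test nothing, since the cells were parted on expression. Over the whole gate, 302 of 7874 genes (3.84%) were higher in members by at least 1.5-fold in all 3 libraries and 488 (6.20%) lower. Among myelin-rich cells alone, 428 of 6374 (6.71%) were higher in members and 450 (7.06%) lower. The genes of the rule are left out of those named below.

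Among myelin-rich cells, Dpysl4 headed the genes higher in members. Dpysl4, of the collapsin response mediator family that acts on the cytoskeleton, had 1.16, 0.951 and 1.09 UMIs per 10000 in members of G-HD, MPG-HD and PBS, against 0.0202, 0.0612 and 0.0453 in the other oligodendrocytes. The ratios were 57.6 (interval 15.6 to 480), 15.5 (9.40 to 27.6) and 24.1 (11.4 to 60.8). Rras2, a small GTPase listed for the newly formed stage, had 1.87, 1.51 and 1.75 against 0.161, 0.134 and 0.0130. Within myelin-rich members Rras2 was higher in low-B than in high-B cells. Slc9a3r2, a PDZ scaffold protein, had 2.60, 2.82 and 2.34 against 0.252, 0.253 and 0.130. Each of these genes was well above the other oligodendrocytes in every library. Lsamp, an adhesion molecule of the IgLON family, had 2.23, 2.01 and 2.37 against 0.293, 0.291 and 0.214, and Tsc22d1, a regulator of transcription, 3.23, 2.72 and 2.53 against 0.424, 0.486 and 0.395. Pnlip, which encodes a lipase best known from pancreas, had 3.41, 2.42 and 2.26 against 0.161, 0.344 and 0.0453. Pnlip was carried by the low-B cells, with 21.2, 19.8 and 16.6 there and 0.0497, 0.937 and 0.680 in high-B cells, whereas Slc9a3r2 was carried by high-B cells, with 3.03, 3.05 and 2.59. Others among the 20 highest by the naming rule were Cntn1, Pcdh17, Tmem178a, Glrb, Gng3, Man1a1, Pcolce, Ntrk2, Marcks, Emp3, Npr1, Ca8 and Ttyh1. When all members and all other oligodendrocytes were compared, the ratios of the 20 were smaller by over 1.5 times for 14 of 17 genes in G-HD, 11 of 20 in MPG-HD and 13 of 19 in PBS, counting genes with UMIs on both sides. Tmem178a, Marcks and Ttyh1 turned below 1 in G-HD by that comparison, at 0.997, 0.708 and 0.819.

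The 12 lowest genes by the naming rule were led by Hopx. Hopx, an atypical homeodomain protein, had 0.125, 0.0612 and 0.0563 UMIs per 10000 in myelin-rich members, against 3.52, 3.88 and 5.08 in the myelin-rich other oligodendrocytes. Its ratios were 0.0356 (0.0197 to 0.0596), 0.0158 (0.00931 to 0.0251) and 0.0111 (0.00477 to 0.0220). Rasgrp3, an exchange factor for Ras, had 0.0418, 0.0204 and 0.00704 against 1.51, 1.57 and 1.80. Uchl1, a ubiquitin hydrolase, had 0.0753, 0.251 and 0.169 against 2.41, 3.28 and 3.26. S100a1, a calcium-binding protein, had 0.769, 0.805 and 0.479 against 7.87, 9.37 and 9.55, and Bace2, an aspartyl protease, 0.109, 0.0544 and 0.0563 against 2.22, 1.48 and 1.46. In all 3 libraries these 5 genes were far lower in members, and Ramp3, Gpx2, Dpysl5, Palm, Ctnnal1, Smim5 and Cfap410 completed the 12. With all members and all other oligodendrocytes, the ratios of the 12 lay between 0.0040 and 0.310.

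**Figure D4:**
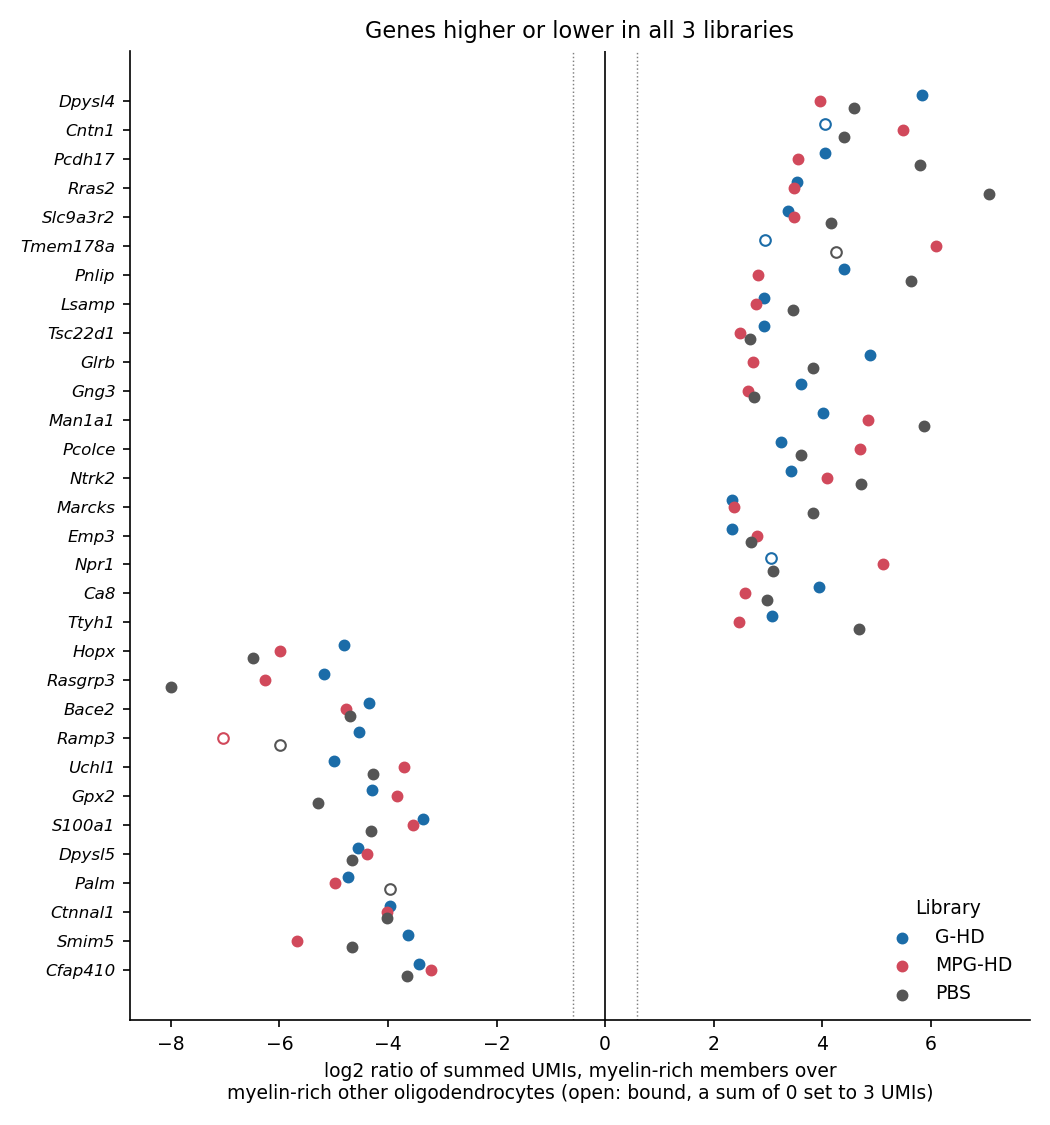
Log2 ratio of summed UMIs, myelin-rich members over myelin-rich other oligodendrocytes, for the genes of the naming rule, with 1 point per library; open points are bounds where a sum of 0 was set to 3 UMIs, and dotted lines mark 1.5-fold. The first 19 genes lie right of the upper line and the last 12 left of the lower line in all 3 libraries.

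Among genes of myelin itself, 9 of 19 measured were higher in myelin-rich members and 4 lower (median log2 ratio 0.62, against 0.09 over all genes). Of all genes in this comparison, 6.71% were higher and 7.06% lower. Mbp, myelin basic protein, had 134, 127 and 134 UMIs per 10000 against 71.8, 75.3 and 74.4, Cd9, a tetraspanin, 84.6, 92.6 and 87.7 against 42.8, 39.8 and 37.3, and Mal 20.1, 26.1 and 30.0 against 10.2, 12.9 and 11.3. Nfasc, the neurofascin of the paranodal junction, had 5.11, 4.47 and 6.49 against 1.18, 1.31 and 1.23. The 4 lower genes were Plekhb1, Enpp2, Cryab, a small heat shock protein of myelin, and Qdpr, dihydropteridine reductase, the last at 6.41, 7.25 and 9.13 against 20.7, 24.3 and 30.7. Mbp, Mobp and Cnp also entered the myelin-rich criterion, which was the same for both kinds of cell.

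Surface genes facing the axon and receptors included several that were higher in members. Beside the counts below, 6.71% of all genes were higher in myelin-rich members and 7.06% lower. Of 13 genes on a list of axon growth inhibitors and axonal adhesion, 6 were higher and none lower: Sema5a, Sema6d, Nfasc, Tnr, Omg and Lgi3. Within myelin-rich members, Sema5a, Nfasc and Tnr were higher in low-B than in high-B cells, and Omg and Lgi3 were lower. Omg, the oligodendrocyte myelin glycoprotein, which inhibits axon growth, had 1.81, 2.26 and 2.41 UMIs per 10000 against 0.938, 1.17 and 1.23. Of 17 receptors, 7 were higher and Ptgds, the prostaglandin D synthase kept on that list, was lower. Ntrk2, the receptor of BDNF, had 0.435, 0.459 and 0.514 against 0.0404, 0.0268 and 0.0194, and Erbb3, a neuregulin receptor, 0.510, 0.578 and 0.739 against 0.0605, 0.138 and 0.188. In the whole gate the ratio of Ntrk2 was 1.14 in G-HD, 2.55 in MPG-HD and 2.15 in PBS, against 10.8, 17.1 and 26.4 among myelin-rich cells, and that of Erbb3 in G-HD turned to 0.822. Lpar1, a receptor of lysophosphatidic acid, had 7.60, 6.93 and 7.49 against 3.62, 3.39 and 3.63. Of 16 lineage transcription factors, 5 were higher (Tcf7l2, Sox2, Carhsp1, Olig2 and Olig1) and none lower. Among these, Tcf7l2 and Sox2 were higher in low-B than in high-B members, and Olig1 was lower. Olig2 had 3.39, 2.70 and 2.44 against 1.42, 1.16 and 0.978, while Sox10, at 3.24, 2.65 and 3.29 against 2.22, 2.00 and 2.14, and Myrf, at 1.97, 1.89 and 2.09 against 1.74, 1.35 and 1.93, were not counted.

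Several iron genes and Cntf were lower in members. The shares of all genes were again 6.71% higher and 7.06% lower. Fth1, the ferritin heavy chain that stores iron, had 43.1, 45.0 and 46.2 UMIs per 10000 against 193, 225 and 250, and Tf 80.3, 84.3 and 81.4 against 169, 167 and 173; with Hmox1, 3 of 9 iron genes were lower and none higher. Cntf, ciliary neurotrophic factor, had 0.0920, 0.0747 and 0.0493 against 0.636, 0.658 and 0.725. Of 13 genes of the mature type MOL2, named in mouse, 7 were lower (Hopx, Anxa5, Cd59, Gjb1, Selenom, Mgst3 and Pmp22) and 2 higher (Cnp and Syt4). Of 12 genes of the type MOL5/6, 6 were lower (Ptgds, Ndrg1, Anln, Tf, Serpinb1a and Spock3) and Slc9a3r2 was higher. Ptgds had 22.1, 21.2 and 22.5 against 63.5, 69.3 and 63.3 among myelin-rich cells, but in the whole gate its ratio was 1.75 in G-HD, 1.03 in MPG-HD and 0.543 in PBS, and that of Serpinb1a was 1.39 in G-HD. Ptgds is also a gene of meningeal fibroblasts.

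Between treatments, counts of genes past 1.5-fold (at least 50 UMIs in both sums together) are given for myelin-rich members. G-HD over PBS had 301 of 4744 genes higher (6.34%) and 187 lower (3.94%). MPG-HD over PBS had 217 of 5746 higher (3.78%) and 399 lower (6.94%), and MPG-HD over G-HD had 126 of 5645 higher (2.23%) and 446 lower (7.90%). Both treatments are compared with the same PBS library, so the first 2 comparisons are not independent. With all members in place of the myelin-rich ones, 13.0% of genes were past 1.5-fold in either direction for G-HD over PBS, 15.5% for MPG-HD over PBS and 17.8% for MPG-HD over G-HD.

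Myelin protein genes showed no difference of that size in any pair: 0 of 17, 17 and 18 measured genes were higher or lower, with medians of -0.05, -0.20 and -0.09 on the log2 scale. Mbp, with 134, 127 and 134 UMIs per 10000 in G-HD, MPG-HD and PBS, had a ratio of 0.998 for G-HD over PBS (0.977 to 1.02) and 0.948 for MPG-HD over PBS (0.932 to 0.965). Mal had a ratio of 0.669 for G-HD over PBS (0.636 to 0.703). Opalin had 8.40, 8.54 and 10.5 in myelin-rich members and Masp1 5.85, 7.04 and 6.48; as genes of the rule they are given without a ratio.

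Immediate early genes, the transcription factors and regulators that cells switch on within minutes of a stimulus, were higher in myelin-rich members of both hydrogel libraries. Fos had 39.2 UMIs per 10000 in G-HD and 38.7 in MPG-HD, against 22.9 in PBS. Jun, the partner of Fos in AP-1, had 18.2 and 15.9 against 9.89, and Junb 12.4 and 13.1 against 7.52. G-HD and MPG-HD were close to each other and above PBS for all 3. Egr1, a zinc finger factor, had 5.49 and 5.15 against 2.80, and Btg2, an antiproliferative regulator, 6.37 and 5.94 against 2.98. Atf3, a stress-induced factor, had 3.94 and 4.75 against 2.22; its ratio was 1.78 for G-HD over PBS (1.54 to 2.06) and 2.14 for MPG-HD over PBS (1.90 to 2.43).

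Over the list, 12 of 16 measured genes were higher and none lower for G-HD over PBS (median log2 ratio 0.80, against 0.02 over all genes), and 15 of 17 higher and none lower for MPG-HD over PBS (0.85, against -0.06). Between MPG-HD and G-HD, 2 of 17 were higher (Myc and Ier3) and Nr4a1 lower, with a median of 0.03. The difference was not seen at that size in the other oligodendrocytes or in the cells outside the gate. In myelin-rich other oligodendrocytes 1 of 14 genes was higher and 2 lower for G-HD over PBS (5.31% of all genes higher and 4.26% lower there), and none of 16 higher and 2 lower for MPG-HD over PBS (3.24% and 4.15%). Fos there had 21.2, 24.1 and 21.8 in G-HD, MPG-HD and PBS. Outside the gate none of 19 and 18 genes was higher and 2 and 1 were lower (6.29% higher and 7.70% lower for G-HD over PBS, 2.64% and 5.25% for MPG-HD over PBS). The difference of these differences was not tested, as each treatment is 1 library.

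The summed level of the list was 102 UMIs per 10000 in myelin-rich members of G-HD, 101 in MPG-HD and 58.0 in PBS, with medians over cells of 82.2, 90.4 and 29.1. In myelin-rich other oligodendrocytes it was 48.8, 57.7 and 53.6, and outside the gate 94.7, 96.2 and 97.5. The PBS members thus stood near the other oligodendrocytes, and members of both hydrogel libraries near the cells outside the gate. Restricted to high-B cells, 13 of 15 genes were higher for G-HD over PBS (5.86% of all genes higher and 5.37% lower) and 14 of 16 for MPG-HD over PBS (4.01% and 7.10%), with none lower. With all members, 8 of 18 were higher for G-HD over PBS, and 7 were higher and 3 lower of 18 for MPG-HD over PBS. Of all genes measured in all members, 504 of 5925 were higher and 266 lower for G-HD over PBS. For MPG-HD over PBS, 230 of 6457 were higher and 774 lower. The number of listed genes that were higher in myelin-rich members moved with the setting. It lay between 2 and 13 for G-HD over PBS and between 5 and 16 for MPG-HD over PBS, the lowest at 2-fold. Myelin-rich members had a median of 11560, 13008 and 12198.5 UMIs in G-HD, MPG-HD and PBS and carried phagocyte genes at 11.6, 9.17 and 8.12 per 10000; the part of either in the result was not tested.

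**Figure D5:**
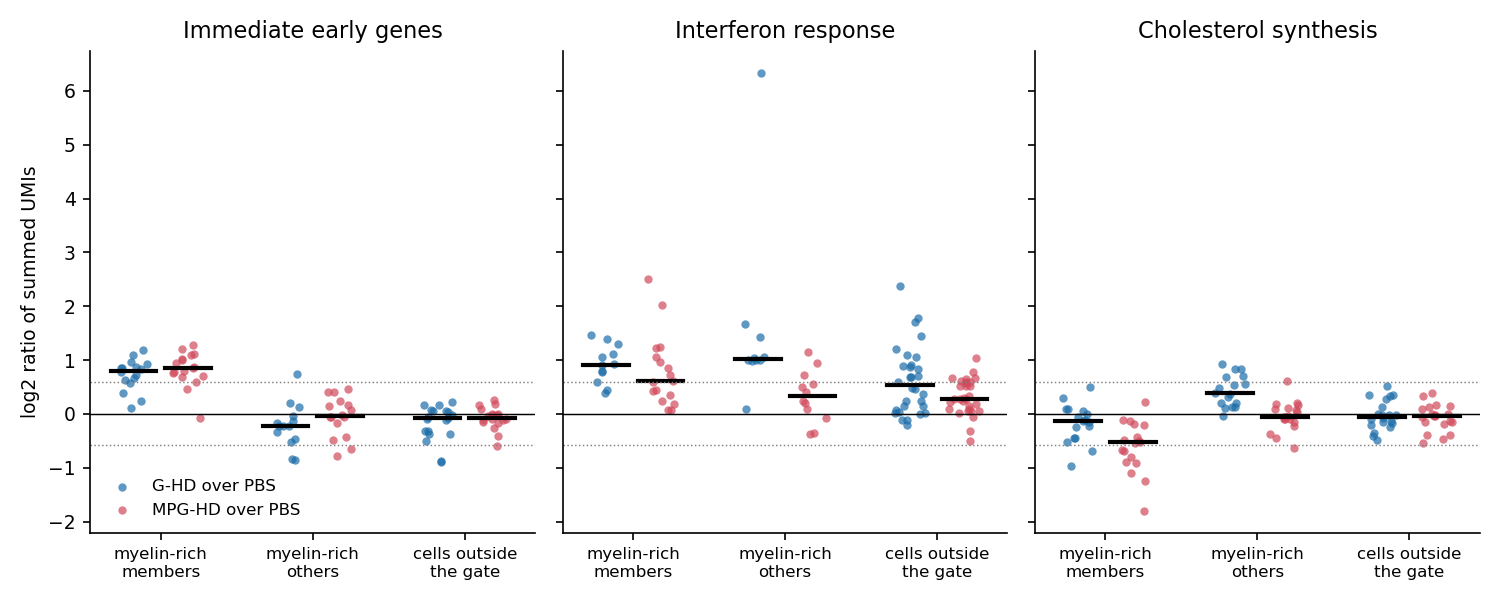
Log2 ratio of summed UMIs to PBS for measured genes of 3 lists in myelin-rich members, myelin-rich other oligodendrocytes and cells outside the gate; each point is a gene, blue for G-HD and red for MPG-HD, bars are medians and dotted lines mark 1.5-fold. Immediate early genes have medians of 0.80 and 0.85 in members, against -0.22 and -0.04 in the other oligodendrocytes, whereas medians of interferon genes are above 0 in all 3.

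Interferon response genes were also higher in both hydrogel libraries, and in other cells as well. Ifi27, an interferon-induced mitochondrial protein, had 6.45 UMIs per 10000 in myelin-rich members of G-HD and 5.80 in MPG-HD, against 3.79 in PBS. Mx2, an antiviral GTPase, had 0.987 and 0.938 against 0.570, and Rtp4, an interferon-induced chaperone of receptors, 0.552 and 0.530 against 0.225. For each the 2 hydrogel libraries were close to each other and above PBS. Over the list, 10 of 12 genes were higher for G-HD over PBS (median 0.91) and 10 of 17 for MPG-HD over PBS (0.61), with none lower, while for MPG-HD over G-HD 1 of 19 was higher and 3 lower. Of all genes, 6.34%, 3.78% and 2.23% were higher in the same order, and 7.90% were lower for MPG-HD over G-HD. Under the alternatives tried, the number higher lay between 0 and 17 for G-HD over PBS and between 1 and 14 for MPG-HD over PBS. The lowest numbers came with cells thinned to 2000 UMIs, where 1 and 2 genes of the list still had enough UMIs to be measured. In myelin-rich other oligodendrocytes the counts were 9 of 10 (1.02) and 3 of 12 (0.33), and outside the gate 15 of 30 (0.54) and 8 of 30 (0.28). Of all genes, 5.31% and 3.24% were higher in those other oligodendrocytes, and 6.29% and 2.64% outside the gate. The phagocyte list in myelin-rich members, at 11.6 in G-HD against 8.12 in PBS, moved with the comparison of G-HD over PBS, and its part was not tested.

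Antigen presentation genes followed in small numbers. Tap1, a subunit of the peptide transporter, had a ratio of 4.30 for G-HD over PBS (2.29 to 8.65), with 0.393 against 0.0915 UMIs per 10000, and RT1-A1, a class I gene, was the other of 2 higher among 7 measured. For MPG-HD over PBS 3 of 9 were higher (Psme1, Tap1 and RT1-A1). Of all genes, 6.34% were higher for G-HD over PBS and 3.78% for MPG-HD over PBS. RT1-S3, another class I gene, had 0.217 in MPG-HD against 0.0211 in PBS, a ratio of 10.3 (3.37 to 51.3). The PBS value is 3 UMIs in 2 cells, and the ratio was 5.24 with all members and 24.6 without the cell that had the most UMIs. Reads of near-identical RT1 genes can be split between copies, so these values are uncertain. B2m, the shared light chain of class I, had 5.85 in G-HD, 5.19 in MPG-HD and 4.84 in PBS.

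Cholesterol synthesis genes were lower in myelin-rich members of MPG-HD. Hmgcs1, which makes the precursor HMG-CoA, had 1.39 UMIs per 10000 in G-HD, 0.642 in MPG-HD and 2.24 in PBS, with ratios of 0.287 for MPG-HD over PBS (0.238 to 0.345) and 0.463 for MPG-HD over G-HD (0.374 to 0.573). Fdps, the farnesyl diphosphate synthase, had 2.52, 2.23 and 3.61, with a ratio of 0.617 for MPG-HD over PBS (0.549 to 0.694). MPG-HD was lowest for both. For Hmgcs1, 1 cell held 19.5% of the UMIs of myelin-rich PBS members. In myelin-rich other oligodendrocytes its ratios were 0.645 (0.467 to 0.893) for MPG-HD over PBS and 0.362 (0.265 to 0.495) for MPG-HD over G-HD. Outside the gate they were 0.727 and 0.794. On the list, 8 of 18 genes were lower for MPG-HD over PBS and none higher (median -0.53), 5 of 17 lower for MPG-HD over G-HD (-0.51), and 2 of 17 for G-HD over PBS (-0.12). Of all genes, 6.94%, 7.90% and 3.94% were lower in the same order. In myelin-rich other oligodendrocytes the counts were 1 higher and 1 lower of 19 (3.24% of all genes higher, 4.15% lower), 5 lower of 18 (5.07% of all genes lower, 3.18% higher), and 5 higher of 17 (5.31% higher, 4.26% lower). The summed level was 20.9, 15.3 and 23.7 in G-HD, MPG-HD and PBS, but the median cell had 11.9, 10.7 and 11.7, so medians differed less than sums. Outside the gate 0 of 20 genes were higher or lower in either comparison with PBS. The number lower for MPG-HD over PBS lay between 3 and 10 under the alternatives tried.

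Newly formed genes within members are given beside the number of low-B cells. For MPG-HD over PBS, 4 of 12 were lower (Tcf7l2, Bmp4, Enpp6 and Casr; median -0.38), for G-HD over PBS 1 of 12 (Casr; -0.06) and for MPG-HD over G-HD 1 of 11 (Bmp4; -0.36). Of all genes, 6.94%, 3.94% and 7.90% were lower in the same order. Bmp4 had 1.87 UMIs per 10000 in G-HD, 0.968 in MPG-HD and 1.69 in PBS, and low-B cells were 27.9%, 11.8% and 18.8% of the myelin-rich members. Among high-B cells alone, 4 of 10 were lower for G-HD over PBS (Cnksr3, Tcf7l2, Bmp4 and Enpp6) and 3 of 11 for MPG-HD over PBS (Tcf7l2, Bmp4 and Enpp6), while for MPG-HD over G-HD 0 of 11 were higher or lower, against 2.89% and 6.08% of all genes. Of all genes in high-B cells, 5.37% were lower for G-HD over PBS and 7.10% for MPG-HD over PBS. In the myelin-rich other oligodendrocytes, Tcf7l2, Bmp4 and Fyn were higher for MPG-HD over PBS.

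Single genes with the largest treatment ratios, named by a rule on size and interval, were partly those of all cells. Olig1, a lineage factor, had 7.69 UMIs per 10000 in myelin-rich members of G-HD, 4.74 in MPG-HD and 3.46 in PBS, a ratio of 2.23 for G-HD over PBS (1.99 to 2.49) and 2.72 outside the gate. Ybx1, an RNA-binding protein, had 2.07, 0.968 and 0.739, with a ratio of 2.79 for G-HD over PBS (2.22 to 3.55) and 2.13 outside; its processed copy Ybx1-ps3 can share its reads. Taf10, of the general transcription machinery, had 2.19 in MPG-HD against 0.837 in PBS, a ratio of 2.62 (2.15 to 3.21) and 2.00 outside, and Mrpl43, of the mitochondrial ribosome, 0.204 against 0.0422, with ratios of 4.83 (2.09 to 13.7) and 1.84. All 4 genes were thus past 1.5-fold outside the gate as well.

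Other genes differed in members and less or not in the cells beside them, and the difference between cell kinds was not tested. Gadd45g, a growth arrest gene, had 11 UMIs per 10000 in myelin-rich members of MPG-HD against 3.72 in PBS, a ratio of 2.95 (2.69 to 3.24), against 1.25 (1.10 to 1.43) in myelin-rich other oligodendrocytes and 0.872 outside the gate. Sat1, the rate-limiting enzyme of polyamine breakdown, had 17.0 in G-HD against 7.94 in PBS, a ratio of 2.14 (1.99 to 2.31), against 1.14 (0.998 to 1.31) and 0.799. Atf3 had 0.713 (0.624 to 0.815) in the other oligodendrocytes for MPG-HD over PBS. Cntfr, the receptor of CNTF, had 0.285 in MPG-HD against 0.0633 in PBS, a ratio of 4.51 (2.26 to 10.2), and 0.854 (0.338 to 2.26) in the other oligodendrocytes. Rhoj, a small GTPase, had 0.769 in G-HD against 0.162 in PBS, a ratio of 4.75 (2.98 to 7.87) that was 1.18 with all members, 2.12 (1.19 to 3.87) in the other oligodendrocytes and 0.675 outside the gate.

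Among genes lower than in PBS, Hspa1b, an inducible heat shock protein, had 0.518 UMIs per 10000 in G-HD, 1.15 in MPG-HD and 1.63 in PBS, with a ratio of 0.319 for G-HD over PBS (0.237 to 0.424), 0.649 with all members, 0.726 in the other oligodendrocytes and 0.350 outside the gate; for MPG-HD over G-HD it was 2.22 (1.69 to 2.95), but 0.840 with all members. Car2, carbonic anhydrase II of oligodendrocytes, had 0.414 in MPG-HD against 1.15 in PBS, a ratio of 0.361 (0.283 to 0.460), and 0.564 in the other oligodendrocytes. For G-HD over PBS the Car2 ratio was 0.547 (0.410 to 0.723) in myelin-rich members. In all other oligodendrocytes of the gate it was 0.174 (0.127 to 0.235) for that pair. Ogt, the O-GlcNAc transferase, had 0.0951 in MPG-HD against 0.310 in PBS, a ratio of 0.307 (0.184 to 0.505), and 0.788 in the other oligodendrocytes. Between MPG-HD and G-HD, genes that headed the naming rule were Lyz2, lysozyme, at 0.290 (0.236 to 0.356) with 0.557 against 1.92, and Spp1, osteopontin, at 0.375 (0.276 to 0.510) with 0.289 against 0.769. Both are abundant phagocyte genes and had 0.190 and 0.388 in the other oligodendrocytes and 0.463 and 0.543 outside the gate. The part of RNA from phagocytes in these 2 values was not tested.

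Further lists are given for myelin-rich members beside the shares of all genes past 1.5-fold. Those shares were 6.34% higher and 3.94% lower for G-HD over PBS, and 3.78% and 6.94% for MPG-HD over PBS. For G-HD over PBS, glucocorticoid-inducible genes had 3 of 10 higher (Klf9, Dusp1 and Fkbp5) and Ddit4 lower, and stress response genes 3 of 17 higher (Slc3a2, Mthfd2 and Shmt2) and Ddit4 lower. Dusp1 is also on the immediate early list. For MPG-HD over PBS the first list had 1 higher (Fkbp5) and 1 lower (Ddit4) of 10, and the second 0 and 1 of 17. Lineage transcription factors had 3 of 16 higher for G-HD over PBS (Klf9, Olig1 and Tcf4) and 3 of 16 lower for MPG-HD over PBS (Tcf7l2, Sox8 and Zfp365). Cytoskeletal genes of myelination had 1 of 25 higher for G-HD over PBS, and 1 higher and 1 lower of 26 for MPG-HD over PBS. Myelin lipid synthesis had 1 higher and 1 lower of 16, and 0 higher and 2 lower of 16.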

How the data were processed

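Single-cell RNA was measured in 3 libraries, 1 per treatment. The deposited matrices hold UMI counts, whole numbers per gene and cell with no normalization; per the submitters' processing notes they were made with Cell Ranger 3.0.2, while the matrix headers give software version 3.1.0. The notes name GRCm38 and mm10, but all 25199 features carry rat Ensembl identifiers per the file headers and feature tables; the rat build is not given in the sources used here.

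Cells were filtered and selected as the report states. Counts were summed per library and class of cells, given per 10000 UMIs of that class, and compared as ratios with exact conditional 95% intervals (Python 3.11.15, NumPy 2.4.6, SciPy 1.17.1, pandas 2.3.3; figures with matplotlib 3.10.9). Shares have Clopper-Pearson intervals. Both cover counting error only, and the number of animals behind a library is not modelled. With 1 library per treatment no test between treatments was possible. A sum of 0 was set to 3 UMIs for a bound. No doublet caller was run. Thinned values drew 2000 UMIs per cell and left out shallower cells. The computation was tested on simulated data.

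Genes were named by a rule: past 1.5-fold in all 3 libraries for classes of cells (the first 20 higher and 12 lower), or at least 2-fold between treatments (the first 10 each way), in the same direction with every cell weighing the same, with no cell above 25% of the UMIs, ranked by the interval bound nearest to 1. From each list the most abundant genes could be named; further genes from the lists were named after their values were seen. Mitochondrial, ribosomal protein, haemoglobin and selection genes were not named, and some genes are not reported here. The members, the 39 gene lists and the alternatives were chosen with earlier results of these data known, and the myelin-rich criterion and the division at a B score of 0 were added after the values had been seen. Alternatives varied the cell filters, the gate, the scores, depth, fold, minimum count, cell weights and libraries.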

Additional observations from a re-analysis of the deposited data

Results flagged for a closer look

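Genes named by the rule for treatment pairs were compared between members and the other oligodendrocytes. For 4 of them the ratios were past 1.5-fold in opposite directions, with neither interval reaching 1. Other genes were not screened, and the difference between the 2 kinds of cell was not tested.

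Efemp1, a fibulin of the extracellular matrix, had 0.187 UMIs per 10000 in members of MPG-HD against 1.23 in members of G-HD, a ratio of 0.153 (0.113 to 0.204), and 0.473 against 0.262 in the other oligodendrocytes, a ratio of 1.80 (1.30 to 2.54). No myelin-rich member of MPG-HD or G-HD had an Efemp1 UMI, so both member values came from cells that were not myelin-rich. The cell with the most Efemp1 UMIs held 24.8% of those in G-HD members.

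The other 3 were found among myelin-rich cells. Tm4sf1, a membrane protein of the tetraspanin-like L6 family, had 2.69 in MPG-HD members against 1.04 in PBS members, a ratio of 2.58 (2.16 to 3.1), and 0.302 against 0.518 in the other oligodendrocytes, a ratio of 0.584 (0.422 to 0.807). Caly, a vesicle protein, had 0.744 in MPG-HD members against 1.52 in PBS members, a ratio of 0.489 (0.404 to 0.593), and 0.582 against 0.266 in the other oligodendrocytes, a ratio of 2.19 (1.54 to 3.17). Naxd, an enzyme that repairs hydrated NADH, had 0.134 in G-HD members against 0.296 in PBS members, a ratio of 0.453 (0.238 to 0.822), and 0.283 against 0.155 in the other oligodendrocytes, a ratio of 1.82 (1.02 to 3.28).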

How the results depend on the processing

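The member shares (43.7% in G-HD, 47.3% in MPG-HD and 43.4% in PBS) became 24.5%, 38.5% and 31.9% with B at least 0.25 above A. They were 26.7%, 41.2% and 33.7% when only members with B at least 0 were kept. The G-HD share was 36.1% when only members with at least 1 B gene UMI were kept. Both of these settings also took the dropped members out of the denominator, so their shares are not of the whole gate. Among myelin-rich cells the G-HD and MPG-HD shares were 55.9% and 52.9%. The cause of each change below was not tested.

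Over the other oligodendrocytes, 302 genes were higher and 488 lower in members. These counts were 129 and 154 with cells thinned to 2000 UMIs, 124 and 236 at 2-fold, and between 412 and 495 higher and 604 and 737 lower when 1 library was left out. The lower count was 1138 with the 0.25 difference and 895 with B at least 0.

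Genes higher in members of G-HD than of PBS numbered 504, against 286 with the 0.25 difference, 322 with at least 2 gate genes, 282 without cells of other types, 174 thinned, 259 with B at least 0, 301 in myelin-rich cells, 163 at 2-fold, 1462 from 10 UMIs and 904 with equal cell weights. Genes lower numbered 266, against 119 thinned, 44 at 2-fold, 855 from 10 UMIs and 440 with equal weights. For MPG-HD over PBS, 230 were higher, against 137 thinned, 59 at 2-fold, 625 from 10 UMIs and 396 with equal weights. There 774 were lower, against 449, 493, 410, 157, 379, 399, 311 and 2003 (0.25 difference, 2 gate genes, other types left out, thinned, B at least 0, myelin-rich, 2-fold and 10 UMIs). For MPG-HD over G-HD, 190 were higher, against 117 with the 0.25 difference, 119 with 2 gate genes, 122 without other types, 119 with a B gene UMI, 126 in myelin-rich cells, 39 at 2-fold, 547 from 10 UMIs and 362 with equal weights. There 965 were lower, against 471, 500, 383, 257, 606, 331, 446, 454 and 2406 (0.25 difference, 2 gate genes, other types left out, thinned, a B gene UMI, B at least 0, myelin-rich, 2-fold and 10 UMIs).

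Directions turned for a few single values. Among myelin-rich cells, Olfml3 had 1.21 (0.198 to 12.7) and Fxyd5 1.33 (0.393 to 5.72) for MPG-HD over PBS. Scara3 had 1.22 (0.0979 to 64.0) there for MPG-HD over G-HD. Each of these wide intervals held 1. Over the other oligodendrocytes, also among myelin-rich cells, Fxyd7 had 3.26 in PBS and Entpd2 1.53 in MPG-HD. With all members, Hspa1b had 0.840 and Ltbp4 0.559 for MPG-HD over G-HD, and Marcks 0.708 and Ttyh1 0.819 over the other oligodendrocytes in G-HD. The median of cytokines and chemokines for MPG-HD over PBS was 0.0143 on the log2 scale with equal weights. No paired analysis was possible because each treatment is 1 library, which also leaves every treatment difference without a replicate check.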
